A study of Mus musculus with 20 samples.

Results

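Lenses of newborn mice (P0) in which 3 E2F transcription factor genes were targeted were compared with control lenses of the same age. Each group had 5 arrays, and together they are 10 of the 20 arrays of the series. The control pups were E2F2-/-. The knockout pups were E2F1-/- and E2F2-/-, carried floxed E2F3 (E2F3 f/f) and had a Cry-Cre transgene. Loss of E2F2 was thus common to both groups, and only the knockout group carried the Cre transgene. The other 10 arrays come from lenses of the same genotypes at the embryonic stage E17.5 and are used here for the choice of probe sets, the filter on low signals, 1 alternative fit and levels. Each sample was total RNA from both lenses of a mouse, freed with needles under a microscope. What drives the Cre beyond the name of the transgene, the strain, the litter and the sex of the pups are given in no source used here. The 10 arrays were taken by stage and genotype as labelled, and each gene was read from the probe set with the highest mean over all 20 arrays. Per the design text, the series deals with the events that come before these lenses break down.

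E2F1, E2F2 and E2F3 bind DNA with a DP partner protein and act on genes of DNA replication and mitosis. Pocket proteins of the retinoblastoma family bind E2F proteins and hold those genes down when a cell leaves the cell cycle. In the lens, a front layer of epithelial cells divides, and cells at its edge stop dividing, elongate and become fibre cells, which fill with crystallin proteins and lose their organelles. The epithelium also lays down the lens capsule, a basement membrane rich in collagen IV, laminin and nidogen.

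Promoters are shown first, because the 2 largest cell cycle groups described below hold different motifs there. From RefSeq's promoter table (GRCm38.p6), 250 bases before to 50 bases after each start, a promoter was found for 9603 of the 11859 genes tested. E2F octamers were searched as TTTGGCGC, TTTCCCGC, TTTCGCGC and TTTGCCGC, and the cell cycle homology region (CHR, a motif of late cell cycle promoters) as TTTGAA, each on both strands. An octamer was found in 18 of 39 (46.2%) promoters of replication genes, against 450 of 9603 (4.69%) over all genes tested. Among mitosis genes it was found in 3 of 40 (7.5%) promoters. The order was the other way round for the CHR, found in 30 of 40 (75%) promoters of mitosis genes, 7 of 39 (17.9%) of replication genes and 1345 of 9603 (14%) over all genes tested. A match describes the letters and is not a binding site. The promoters of 3 replication genes and 3 mitosis genes follow, those with the smallest adjusted p among the genes with a single listed promoter that holds the motif of their group. Each is written 5′ to 3′ on the strand of the gene, with the E2F octamer in capitals for Rfc3 (chr5:151651159-151651458, minus strand), Cdt1 (chr8:122567765-122568064, plus strand) and Mcm5 (chr8:75109259-75109558, plus strand). For Cenpw (chr10:30200491-30200790, minus strand), Ttk (chr9:83834439-83834738, plus strand) and Cdk1 (chr10:69352863-69353162, minus strand) the CHR is in capitals.
Rfc3: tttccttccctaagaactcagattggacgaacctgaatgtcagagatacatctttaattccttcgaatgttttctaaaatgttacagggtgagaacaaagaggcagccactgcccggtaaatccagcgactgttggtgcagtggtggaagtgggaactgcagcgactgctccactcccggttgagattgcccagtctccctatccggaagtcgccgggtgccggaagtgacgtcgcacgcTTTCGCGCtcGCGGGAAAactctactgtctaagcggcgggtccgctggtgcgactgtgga
Cdt1: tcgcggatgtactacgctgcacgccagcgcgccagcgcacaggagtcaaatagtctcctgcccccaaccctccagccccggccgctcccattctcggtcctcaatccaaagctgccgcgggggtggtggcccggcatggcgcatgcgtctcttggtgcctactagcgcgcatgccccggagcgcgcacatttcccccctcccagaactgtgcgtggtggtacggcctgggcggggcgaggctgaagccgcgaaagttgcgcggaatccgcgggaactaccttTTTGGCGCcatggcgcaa
Mcm5: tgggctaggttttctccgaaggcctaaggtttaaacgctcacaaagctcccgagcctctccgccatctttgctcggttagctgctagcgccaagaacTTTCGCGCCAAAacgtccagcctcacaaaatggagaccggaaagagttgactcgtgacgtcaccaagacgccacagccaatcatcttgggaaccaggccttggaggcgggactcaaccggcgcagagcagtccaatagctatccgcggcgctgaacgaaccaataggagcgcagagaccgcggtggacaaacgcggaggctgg
Cenpw: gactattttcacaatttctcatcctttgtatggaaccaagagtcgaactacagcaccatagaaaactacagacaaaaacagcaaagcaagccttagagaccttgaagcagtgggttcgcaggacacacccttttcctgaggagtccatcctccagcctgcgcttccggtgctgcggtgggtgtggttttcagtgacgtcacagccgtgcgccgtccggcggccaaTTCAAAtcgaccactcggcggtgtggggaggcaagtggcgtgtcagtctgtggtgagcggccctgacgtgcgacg
Ttk: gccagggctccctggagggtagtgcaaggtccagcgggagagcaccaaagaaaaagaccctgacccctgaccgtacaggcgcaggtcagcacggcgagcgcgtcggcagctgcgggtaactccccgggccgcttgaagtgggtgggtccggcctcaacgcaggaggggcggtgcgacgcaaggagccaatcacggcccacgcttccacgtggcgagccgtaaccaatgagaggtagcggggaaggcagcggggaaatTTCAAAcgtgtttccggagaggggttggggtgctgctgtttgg
Cdk1: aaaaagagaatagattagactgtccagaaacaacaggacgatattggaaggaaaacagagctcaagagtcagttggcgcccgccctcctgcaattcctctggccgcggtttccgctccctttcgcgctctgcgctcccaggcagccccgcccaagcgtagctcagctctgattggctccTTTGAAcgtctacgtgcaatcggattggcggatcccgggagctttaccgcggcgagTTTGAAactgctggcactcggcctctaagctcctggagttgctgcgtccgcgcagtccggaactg
In Mcm5 the 2 octamers, 1 on each strand, overlap in 1 run of letters, and in Rfc3 they lie side by side at the start. All 6 genes rose in knockout lenses: Rfc3, a subunit of the clamp loader, by 0.68 ± 0.07, the licensing factor Cdt1 by 1.07 ± 0.11, the helicase subunit Mcm5 by 1.33 ± 0.14, the centromere protein Cenpw by 1.58 ± 0.21, the spindle checkpoint kinase Ttk by 0.96 ± 0.13 and the mitotic kinase Cdk1 by 1.34 ± 0.19 (log2 units ± SE, 5 arrays in each group, limma adjusted p at most 0.000546). Ttk was at 0.58 (adjusted p = 0.136) in a fit with a retinal covariate that is described below.

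Values are log2 expression as deposited, so a difference of 1 is a doubling, and a gene was called higher or lower when limma's adjusted p was below 0.05 over the 11859 genes tested. Of these, 4700 were called (39.6%), 2399 higher in knockout lenses (20.2%) and 2301 lower (19.4%). All 5 knockout arrays lay above all 5 control arrays for 1569 genes (13.2%) and below them for 1501 (12.7%). With such shares, a list with members called at those rates in both directions is near the background. The rises were the larger changes, with 318 genes higher and 87 lower by 2-fold or more. Knockout arrays had a higher Gapdh 5′ minus 3′ difference, which reflects RNA length, by 0.180 (exact two-sided permutation p = 0.00794, adjusted p = 0.0317 over 4 array properties) and did not overlap between the groups. The actin 5′ minus 3′ difference was higher too, by 0.153 (exact two-sided permutation p = 0.0159, adjusted p = 0.0317), with overlapping groups. Array medians lay between 5.19 and 5.25, and precision is limited by the number of arrays. Controls correlated with each other at 0.989 to 0.993, knockout arrays at 0.974 to 0.995, and arrays of different groups at 0.942 to 0.979. The p-values rest on the spread over separate mice, and their litters are not given.

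Genes that mark other cells of the eye differed between the genotypes. Of 18 tested transcription factors of retinal progenitors and neurons, 15 were higher and 1, Sox2, lower, with a median change of 1.53. In 5 of the 18 a group mean lay below the array median, and all 5 were called. Of 21 markers of photoreceptors, neurons and glia, 17 were higher and 1 lower (median 1.32). In 8 of the 21 a group mean lay below the array median, and 7 of these were called. Over all genes tested, 344 of 698 such genes were called. Such a gene can pass the filter on low signals through its higher group alone. Of the 13 with both means above it, 10 were higher and 1 lower. Among the defining retinal markers, Lhx2, a factor of retinal progenitors, stood at 7.22, 6.51, 6.47, 4.88 and 6.43 in the control arrays and at 8.77, 8.75, 8.73, 8.25 and 8.63 in the knockout arrays. The groups did not overlap, but the control arrays spread widely. The photoreceptor marker Rcvrn was below the array median in both groups, at 3.90 ± 0.14 and 3.76 ± 0.13, and was not tested, and the difference for Crx was 0.58 ± 0.22 (adjusted p = 0.0552). Of 13 pigment cell markers 7 were higher and none lower, with Dct, an enzyme of melanin synthesis, at 7.49 ± 0.53 (mean ± SD, n = 5) in controls and 9.86 ± 0.44 in knockout lenses. Of 16 ciliary body and iris markers 11 were higher and 2 lower (1 lower without control replicate 5, 6 or 7 or knockout replicate 17, 18 or 19), and of 14 macrophage markers 5 were higher and none lower. The macrophage count was 10 without control replicate 5, 8 without knockout replicate 22, and 3 without control replicate 6, 7 or 8 or knockout replicate 17, 18 or 19. Endothelium and pericyte markers gave 2 higher and 1 lower of 23 (1 higher without control replicate 6 or 7 or knockout replicate 17, 18 or 19, and 3 lower without control replicate 1), corneal markers 0 of 4, and the cornea keratin Krt12 lay at 3.07 ± 0.09 and 3.21 ± 0.31, below the array median. Periocular mesenchyme and muscle markers gave 2 higher and 1 lower of 8 (1 to 2 higher over the fits that left out 1 array). Fewer cells of a type and less RNA per cell cannot be told apart in these bulk samples. The median deviation of the retinal factors from the control mean ran from -0.65 (control replicate 7) to 0.68 (control replicate 1) among controls and from 1.06 to 1.91 among knockout arrays. Over the same 5 controls the replication genes ran from -0.08 to 0.06, and a link between these 2 lists was not tested. A fit with the mean of 39 retinal and neural markers as a covariate is given beside the groups below. Since that mean does not overlap between the groups, genotype and covariate are partly the same variable, and this fit called 320 genes higher and 117 lower. With the Gapdh 5′ minus 3′ signal as the covariate, 0 genes were called by limma, with 1420 at an unadjusted p below 0.05, since genotype and that signal cannot be told apart. The part of RNA length and of other cells in the results was not tested beyond these fits. Of 190 called genes named here, 52 remained called with the retinal covariate, and 0 with the Gapdh covariate. Values from the retinal fit are given beside the genes where they fell short of the plain difference by more than 1.5 times. Lhx2, whose value there was 1.37 (adjusted p = 0.16), is itself among the markers of the covariate. With the Gapdh covariate the list medians were -0.73 for collagen IV, 0.67 for fibrillar matrix, -0.41 for membrane proteins, 0.19 for oxidative phosphorylation and 0.17 for the proteasome.

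**Figure D1:**
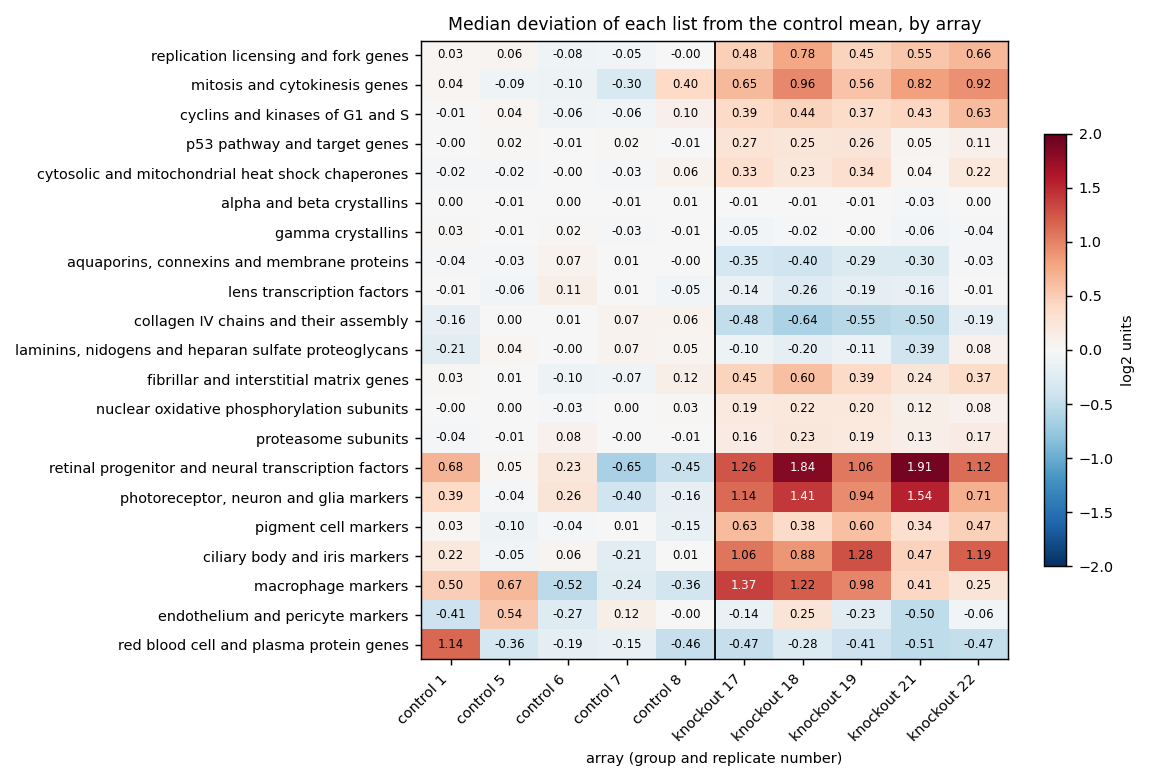
Median deviation of the tested members of 21 gene lists from the control mean (log2 units), in each of the 5 control and 5 knockout arrays at birth. Replication genes run from -0.08 to 0.06 in controls and from 0.45 to 0.78 in knockout arrays. Retinal factors run from -0.65 to 0.68 in controls and from 1.06 to 1.91 in knockout arrays.

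The lens itself was well represented in every array. Cryaa, the alpha A crystallin, lay at 14.88 ± 0.01 in control and 14.87 ± 0.02 in knockout lenses, and the fibre membrane channel Mip at 13.51 ± 0.07 and 13.55 ± 0.14. The labels call the cell type epithelial, while crystallins and Mip, which mark fibre cells, were among the brightest signals, so RNA of whole lenses was measured. Such signals stand close to the highest value in the table, 15.007, where differences may be compressed.

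Of the 3 targeted genes, E2f1 had more mRNA in the knockout arrays. It stood at 7.52, 7.29, 7.43, 7.33 and 7.15 in the control arrays and at 7.86, 7.89, 7.66, 7.91 and 7.62 in the knockout arrays, a rise of 0.44 ± 0.09 (adjusted p = 0.00263), and the groups did not overlap. A second E2f1 probe set rose by 0.56, and the remaining one, below the array median in all arrays, differed by -0.01. E2f3 stood at 7.97, 8.10, 7.98, 8.09 and 7.89 in the control arrays and at 7.85, 7.83, 7.84, 7.99 and 8.22 in the knockout arrays, a difference of -0.06 ± 0.08 (adjusted p = 0.595), and E2f2, null in both groups, had one of -0.04 ± 0.07 (adjusted p = 0.632). No source used here says whether these probes lie in the deleted parts, so they are no check of the loss. Of the other 10 tested family members, DP partners and pocket proteins, Rbl1 (p107) rose by 0.54 ± 0.16 (adjusted p = 0.0192), the repressor E2f7 by 0.37 ± 0.11, and the partners Tfdp1 and Tfdp2 by 0.27 ± 0.08 and 0.26 ± 0.08. Without control replicate 6 E2f7 was not called, nor Tfdp1 without control replicate 1 or 5, nor Tfdp2 without control replicate 7. The repressor E2f6 changed by -0.30 ± 0.07 (adjusted p = 0.00615), E2f5, which binds pocket proteins, by -0.52 ± 0.10, and Rb1, the retinoblastoma gene, by -0.38 ± 0.10, and all 3 were called lower. E2f4, which acts with the pocket proteins in resting cells, had a difference of 0.04 ± 0.07 (adjusted p = 0.682), E2f8 one of 0.36 ± 0.17 and Rbl2 one of 0.12 ± 0.11, and none of these was called. The retinal covariate put E2f1 at 0.15 (adjusted p = 0.507), E2f7 at 0.08 (adjusted p = 0.822) and Tfdp2 at -0.02, and in the mean over probe sets Rb1 was at -0.18 and not called.

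Genes of DNA replication were higher in knockout lenses. Of 48 tested replication licensing and fork genes 43 were higher and none lower, beside 20.2% and 19.4% of all genes, and the median change was 0.59. Prim1, the catalytic subunit of the primase that starts new strands, stood at 6.86, 6.65, 6.52, 6.27 and 6.40 in the control arrays and at 8.17, 8.38, 7.98, 7.96 and 7.95 in the knockout arrays. Each knockout array lay above each control array by more than a full log2 unit, a rise of 1.55 ± 0.12 (adjusted p = 3.66e-05), or 2.92-fold. Gins1, a subunit of the GINS complex of the replication helicase, rose from 5.76 ± 0.09 to 7.24 ± 0.22, by 1.48 ± 0.10, and a dim second probe set differed by -0.07. Rpa2, which coats single-stranded DNA, rose by 1.05 ± 0.07, and its second probe set by 0.66. The sliding clamp Pcna rose by 1.03 ± 0.10 and geminin (Gmnn), which blocks relicensing, by 1.29 ± 0.11. The helicase subunits Mcm2 to Mcm7 all rose, by 0.46 (Mcm3) to 1.33 (Mcm5). The 5 members not called were Orc1, Rfc1, Pola2, Pold2 and Timeless, whose difference was -0.57 ± 0.24 (adjusted p = 0.0824). Of 19 nucleotide synthesis enzymes 10 were higher and 1 lower. Rrm1, the large subunit of ribonucleotide reductase, rose by 0.97 ± 0.08 (adjusted p = 6.71e-05) and Dctpp1, which clears dCTP, by 0.53 ± 0.07. Mthfd1l, a mitochondrial folate enzyme, fell from 8.95 ± 0.15 to 8.57 ± 0.13 (adjusted p = 0.0051). With the retinal covariate the replication median was still 0.59, and 13 of 48 were called, among them Prim1 at 1.20 (adjusted p = 0.0194) and Gins1 at 1.27 (adjusted p = 0.0165).

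Mitotic genes showed the same direction. Of 49 tested mitosis and cytokinesis genes 45 were higher and none lower, with a median change of 0.74. In 10 of the 49 a group mean lay below the array median, and all 10 were called, beside 344 of 698 such genes over all genes tested. Of the 39 with both means above it, 35 were higher. Mad2l1, of the spindle checkpoint, stood at 7.05, 6.99, 6.94, 6.86 and 7.43 in the control arrays and at 8.19, 8.42, 8.17, 8.13 and 8.27 in the knockout arrays. Control replicate 8 was the highest control array, and all 5 knockout arrays lay above it, a rise of 1.19 ± 0.10 (adjusted p = 6.66e-05). Ect2, a factor of cytokinesis whose control mean was below the array median, rose by 1.002 ± 0.12, and Cenpk, a kinetochore protein, by 1.05 ± 0.14. The largest rise of the list was that of securin (Pttg1), which stood at 7.77, 7.78, 7.67, 9.92 and 8.28 in the control arrays and at 10.25, 10.16, 10.18, 10.90 and 10.21 in the knockout arrays. Control replicate 7 was the highest control, close below the knockout arrays, and the rise was 2.06 ± 0.38 (adjusted p = 0.00208). Foxm1, a transcription factor of mitotic genes, had a difference of 0.07 ± 0.06 (adjusted p = 0.328), the proliferation marker Mki67 one of 0.43 ± 0.20, Bub3 one of 0.13 ± 0.06 and separase (Espl1) one of 0.00 ± 0.09, and none of these 4 was called. Control arrays spread more in this list than in replication, from -0.30 to 0.40 in median deviation, against 0.56 to 0.96 in knockout arrays. Beside the retinal covariate the median was 0.62, and 3 of 49 members were called, while the sign was positive in 48. With the Gapdh covariate the median was -0.01 and 23 of 49 were positive, whereas for the replication genes it was 0.73 with 44 of 48 positive.

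Regulators of the cell cycle moved in both directions. Of 18 tested cyclins and cyclin-dependent kinases that act in G1 and S phase, 14 were higher and none lower (median 0.42). Cdk2 stood at 6.77, 6.64, 6.88, 6.53 and 6.72 in the control arrays and at 7.45, 7.49, 7.38, 7.42 and 7.65 in the knockout arrays, a rise of 0.77 ± 0.08 (adjusted p = 0.000118). Its groups did not overlap. The kinase subunit Cks2 rose by 1.34 ± 0.14 and Cdc25a, the phosphatase that activates Cdk2, by 1.08 ± 0.12. Cyclins D1 and D2 (Ccnd1, Ccnd2) rose by 0.70 ± 0.16 and 0.63 ± 0.19, and Ccnd2 was not called without knockout replicate 18, while Ccnd3 had a difference of 0.01 ± 0.07 (adjusted p = 0.888). Among 6 CDK inhibitors, Cdkn1a (p21), a target of p53, stood at 5.67, 5.81, 5.60, 5.66 and 5.98 in the control arrays and at 8.41, 8.48, 8.06, 6.15 and 6.90 in the knockout arrays, a rise of 1.86 ± 0.40 (adjusted p = 0.00422). Knockout replicates 21 and 22 were lower than the other 3, and all knockout arrays lay above the controls. Cdkn1c (p57) and Cdkn1b (p27), which hold fibre cells out of the cycle, were lower, by -0.31 ± 0.11 (adjusted p = 0.0399) and -0.56 ± 0.18 (adjusted p = 0.0331), with overlapping groups. Neither was called without control replicate 6, 7 or 8 or knockout replicate 17, 18 or 19, and 1 of them without control replicate 1 or 5. Of 8 tested histones and histone chaperones 6 were higher and 2 lower, or 1 lower without control replicate 5 or 6, where H1f2 was not called. Nasp, a histone chaperone, rose by 0.91 ± 0.11 and Hmgb2 by 1.22 ± 0.19, while the linker histone H1f2 fell from 12.25 ± 0.23 to 11.71 ± 0.35 (adjusted p = 0.0218). In the retinal covariate fit Ccnd1 was at 0.07 (adjusted p = 0.875), Ccnd2 at 1.27 (adjusted p = 0.0415) and Hmgb2 at 0.75 (adjusted p = 0.18).

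**Figure D2:**
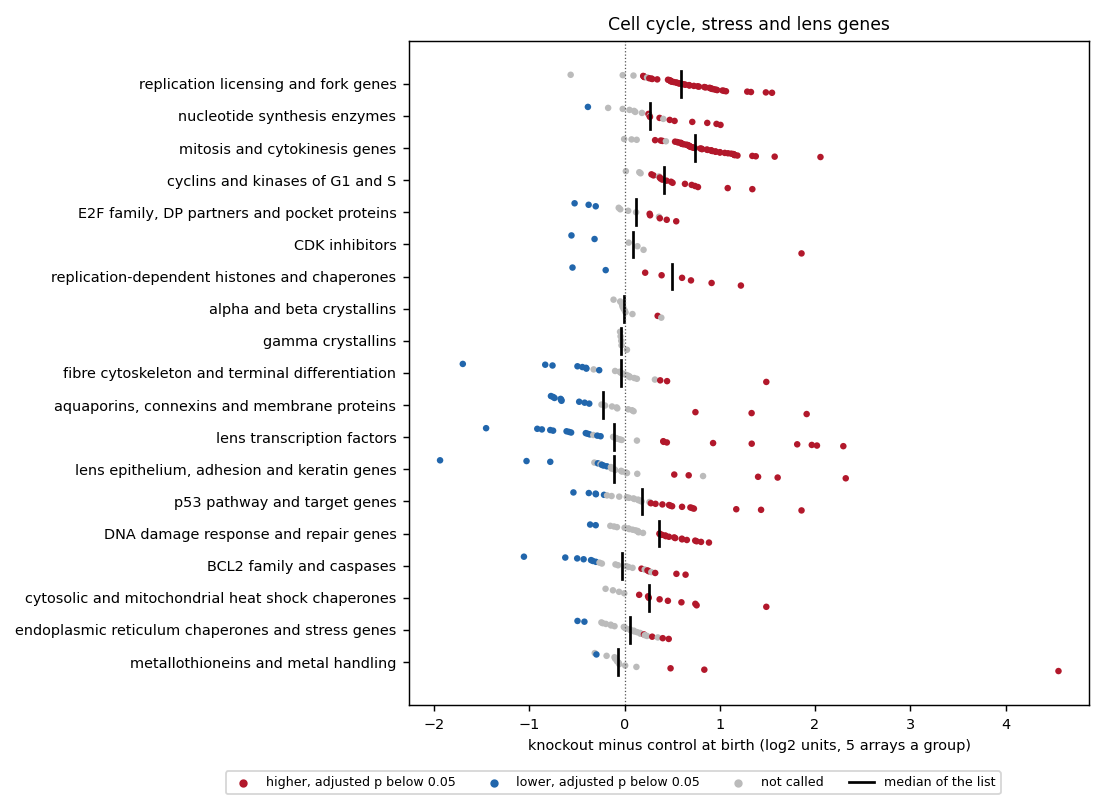
Change of each tested gene in the cell cycle, stress and lens lists (knockout minus control, log2 units), 1 point a gene, red and blue where limma's adjusted p was below 0.05, with the list median as a bar. Of the replication genes 46 of 48 and of the mitosis genes 48 of 49 lie to the right of 0, most crystallins near 0, and lens transcription factors on both sides.

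Stress and death genes changed less evenly. Of 31 genes of the p53 pathway 13 were higher and 5 lower, a median change of 0.18. The count of lower genes was 3 or 4 in each of the 10 fits that left out 1 array. It was 3 without control replicate 1 or 6 or knockout replicate 18, 19 or 21. Rps27l, a p53 target, rose from 10.69 ± 0.10 to 11.17 ± 0.14, by 0.48 ± 0.08 (adjusted p = 0.000938), the exonuclease Aen by 0.60 ± 0.11 and Dcxr by 1.17 ± 0.22. Phlda3, which restrains Akt, rose by 1.43 ± 0.33. Mdm2, the ubiquitin ligase that degrades p53, had a difference of 0.05 ± 0.07 (adjusted p = 0.643), and the death gene Bbc3 (Puma) was lower, at -0.30 ± 0.11 (adjusted p = 0.0476), a call lost in 8 of the 10 fits that left out 1 array (all but those without control replicate 5 or 8). Rrm2b and Ptp4a3 fell by 0.37 and 0.54. Mdm4 was lower by its chosen probe set (-0.30 ± 0.09) but higher by 0.21 when probe sets shared between transcripts were left out. In median deviation, p53 genes stood at 0.25 to 0.27 in knockout replicates 17, 18 and 19, at 0.05 in replicate 21 and at 0.11 in replicate 22. Of 29 DNA damage and repair genes 15 were higher and 2 lower (median 0.37). The checkpoint kinase Chek1 rose by 0.80 ± 0.09 and the mismatch repair gene Msh6 by 0.53 ± 0.08, while Trp53bp1 fell from 10.15 ± 0.07 to 9.79 ± 0.05 (adjusted p = 0.000685). Averaged over its probe sets Mdm4 was at -0.03.

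Of 22 BCL2 family genes and caspases 6 were higher and 7 lower. Bmf, a death-promoting member, stood at 7.35, 6.93, 7.46, 7.27 and 6.87 in the control arrays and at 6.36, 6.14, 5.94, 6.06 and 6.12 in the knockout arrays. Its groups did not overlap, a change of -1.06 ± 0.12 (adjusted p = 0.000236), but a second probe set above the array median differed by 0.14. The mitochondrial protein Bnip3 fell by 0.62, and Birc2, an inhibitor of apoptosis, by 0.35. Cytochrome c (Cycs) rose by 0.64 ± 0.08 and Casp6 by 0.32 ± 0.07. Of 13 heat shock chaperones 9 were higher and none lower. Hspb1, a small heat shock protein of the lens, stood at 11.29, 11.26, 11.32, 11.38 and 11.36 in the control arrays and at 13.02, 13.67, 13.38, 11.62 and 12.36 in the knockout arrays. The controls had an SD of 0.05 and the knockout arrays ranged widely, with replicate 21 the lowest, a rise of 1.49 ± 0.32 (adjusted p = 0.00417). Dnajb1 rose by 0.76 ± 0.14. Chaperones of the endoplasmic reticulum were near the background, with 4 higher and 2 lower of 25. Without control replicate 1 or 7 or knockout replicate 18, 2 were higher, and without knockout replicate 22, 6 were lower. Among 14 genes of metal handling, metallothionein 1 (Mt1) stood at 6.35, 5.79, 5.78, 5.79 and 4.92 in the control arrays and at 10.74, 11.01, 10.83, 8.44 and 10.39 in the knockout arrays. That was the largest change of any gene tested, 4.56 ± 0.45 (adjusted p = 0.000114) or 23.5-fold, and knockout replicate 21 was the lowest of its group. The other Mt1 probe set rose by 1.17, from 5.91 to 7.08, so the size of the rise depends on the probe set. Mt2 rose by 0.84 ± 0.21 (adjusted p = 0.0105) and Hmox1, which breaks down haem, by 0.48 ± 0.13, while the zinc exporter Slc30a1 had a difference of -0.05 ± 0.10 (adjusted p = 0.683) and the zinc-sensing factor Mtf1 one of -0.10 ± 0.08 (adjusted p = 0.297). Averaged over probe sets Casp6 was at 0.15 and not called, and Hmox1 was at 0.32 (adjusted p = 0.458) in the retinal fit.

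**Figure D3:**
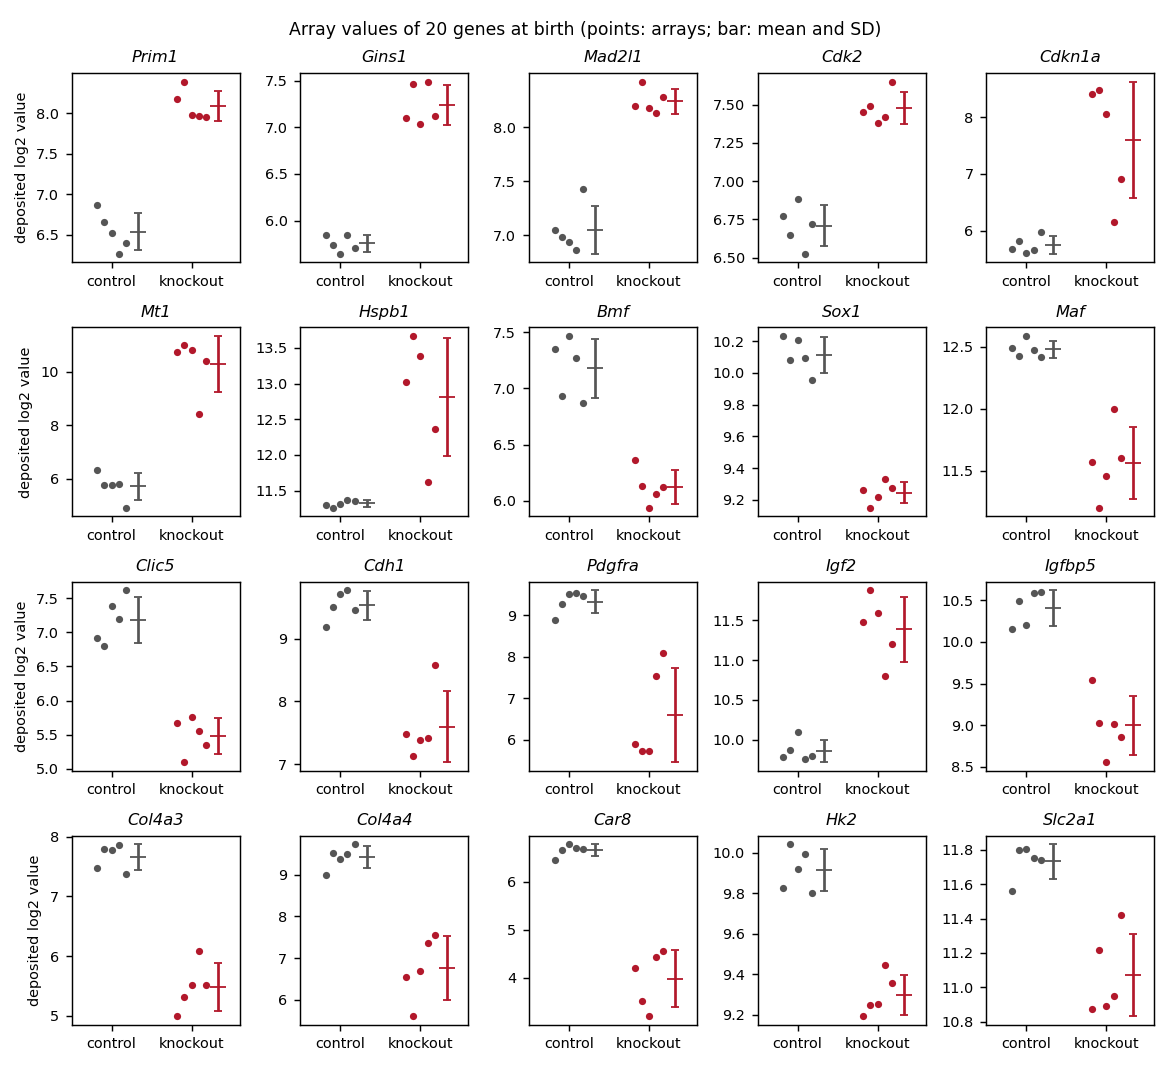
Deposited log2 values of 20 genes in the 5 control and 5 knockout arrays at birth, with mean and SD; each vertical axis has its own range and does not start at 0. The groups do not overlap for any of the 20 genes. Knockout replicates 21 and 22 stand nearer to the controls for Cdkn1a, Hspb1 and Pdgfra.

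Crystallin transcripts differed little between the groups. Of 11 tested alpha and beta crystallins and related genes, all control arrays lay above all knockout arrays for 3, against 12.7% of all genes. These were Cryab (-0.12 ± 0.05), Crybb3 (-0.05 ± 0.04) and Cryba4 (-0.03 ± 0.04), none of them called. For Cryba4 the SD was 0.02 in control and 0.01 in knockout lenses, smaller than the SE that limma gave. Of the 11 genes 1, Crybb2, was called. It stood at 13.47, 13.50, 13.40, 13.50 and 13.73 in the control arrays and at 14.13, 13.91, 14.08, 13.40 and 13.82 in the knockout arrays. The groups overlapped, the rise was 0.35 ± 0.13 (adjusted p = 0.048), and 12 of 21 other settings of the processing did not call it. Of 5 gamma crystallins 0 were called by limma (also 0 at an unadjusted p below 0.05), with changes from -0.05 to 0.03, Crygd at 14.58 ± 0.03 and 14.54 ± 0.03. Genes of fibre structure and terminal differentiation gave 3 higher (5 without knockout replicate 22) and 8 lower of 24. The beaded filament proteins Bfsp1 and Bfsp2 had differences of 0.04 ± 0.05 and -0.03 ± 0.07 and were not called. Clic5, a chloride intracellular channel protein, stood at 6.91, 6.80, 7.38, 7.20 and 7.62 in the control arrays and at 5.67, 5.10, 5.75, 5.55 and 5.35 in the knockout arrays. All control arrays lay above all knockout arrays, a fall of 1.70 (adjusted p = 0.000114), and of its 3 other probe sets 2 differed by -1.85 and a dim one by -0.50. Spectrin beta (Sptb) fell by 0.49, the RNA-binding protein Rbm24 by 0.83, ankyrin 2 (Ank2) by 0.76 and Dnase2b, the nuclease that removes fibre cell DNA, by 0.40. Dnase2b was not called without control replicate 6 or knockout replicate 18. The protease Capn3 rose from 12.98 ± 0.12 to 13.43 ± 0.04, by 0.45 ± 0.06 (adjusted p = 0.00058), and Caprin2 by 0.37 ± 0.08. The retinal fit put Capn3 at 0.26 (adjusted p = 0.152).

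Membrane proteins of the lens were more often lower. Of 20 tested aquaporins, connexins and membrane proteins 9 were lower and 3 higher, with a median change of -0.22. The fibre connexin Gja3 fell from 11.99 ± 0.07 to 11.57 ± 0.09, by 0.42 (adjusted p = 0.000609), while the epithelial connexin Gja1 rose by 0.74 ± 0.13 (adjusted p = 0.00184). The water channel Aqp5 fell by 0.66 and Aqp1, an epithelial channel, rose by 1.33 ± 0.24. N-cadherin (Cdh2), the adhesion protein of fibres, fell by 0.77, the amino acid transporters Slc38a2 and Slc7a5 by 0.67 and 0.75, and the cation channel Trpm3 by 0.73. In knockout replicate 22 the median deviation of the list was -0.03, against -0.29 to -0.40 in the other 4. Without replicate 22, 12 members were lower.

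Lens transcription factors split. Of 30 tested, 13 were lower and 9 higher. Sox1, needed for gamma crystallin expression and fibre elongation, stood at 10.23, 10.08, 10.21, 10.10 and 9.95 in the control arrays and at 9.26, 9.15, 9.22, 9.33 and 9.28 in the knockout arrays. These groups lay apart with an SD of 0.11 and 0.07, a change of -0.87 ± 0.06 (adjusted p = 3.66e-05). Maf (c-Maf), an activator of crystallin genes, stood at 12.49, 12.43, 12.59, 12.47 and 12.42 in the control arrays and at 11.57, 11.20, 11.45, 11.999 and 11.60 in the knockout arrays, a change of -0.92 ± 0.12 (adjusted p = 0.000398), and its 5 other probe sets were lower by 0.37 to 1.32. Tfap2a, a factor of the epithelium, fell by 1.45 and Pitx3, a factor of early lens growth, by 0.61. Foxe3, which keeps epithelial cells dividing, stood at 7.84, 8.45, 8.48, 8.37 and 8.55 in the control arrays and at 7.29, 7.06, 7.40, 7.64 and 8.42 in the knockout arrays, with overlapping groups and a change of -0.78 ± 0.23 (adjusted p = 0.0199). Its call was lost in a fit over all 20 arrays (adjusted p = 0.0671). Among those called higher, Mab21l2 rose by 1.97 ± 0.26, Dach1 by 1.34 ± 0.11, Otx2 by 2.02 ± 0.50 and Pax6, which is active in lens and retina, by 0.41 ± 0.09 (adjusted p = 0.00487). Otx2 and Pax6 also stand in the marker lists of retina and ciliary body, and Otx2 was at -0.44 (adjusted p = 0.396) with the retinal covariate. Prox1, which drives fibre elongation, had a difference of 0.13 ± 0.06 (adjusted p = 0.0815) and the heat shock factor Hsf4 one of -0.05 ± 0.07 (adjusted p = 0.607). With the retinal covariate 2 of the 30 were called lower, Sox1 at -1.004 (adjusted p = 0.0155) and Maf at -1.11 (adjusted p = 0.0342), and Dach1 was called higher at 1.42 (adjusted p = 0.0174). Foxe3 was at -0.32 (adjusted p = 0.671) in that fit.

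Adhesion and epithelial genes gave 7 lower and 5 higher of 25. E-cadherin (Cdh1), the adhesion protein of the lens epithelium, stood at 9.20, 9.51, 9.72, 9.78 and 9.46 in the control arrays and at 7.49, 7.13, 7.38, 7.42 and 8.59 in the knockout arrays. Knockout replicate 22 was the highest of its group and still below every control, a change of -1.94 ± 0.24 (adjusted p = 0.000275), or 3.83-fold lower. Slc38a3, a glutamine transporter, fell by 1.03 and beta-catenin (Ctnnb1) by 0.22. Keratin 18 (Krt18) rose by 1.61 ± 0.16, the heparin-binding growth factor midkine (Mdk) by 1.40 ± 0.14 and Cldn1 by 2.32 ± 0.37, while Epcam, a surface protein of epithelia, had a difference of 0.01 ± 0.09 (adjusted p = 0.931). Averaged over its probe sets Ctnnb1 was at -0.05 and not called.

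Growth factor signalling showed its largest fall in Pdgfra, the receptor through which PDGF drives division of lens epithelial cells. Pdgfra stood at 8.88, 9.26, 9.51, 9.54 and 9.46 in the control arrays and at 5.90, 5.72, 5.71, 7.54 and 8.09 in the knockout arrays. Knockout replicates 17, 18 and 19 lay lowest and replicates 21 and 22 higher, all below the controls, a change of -2.73 ± 0.44 (adjusted p = 0.00105). Its 2 other probe sets were lower by 1.11 and 1.32. The ligand Pdgfa had a difference of -0.20 ± 0.08 (adjusted p = 0.0711), and Pdgfc, whose control mean was below the array median, rose by 0.90 ± 0.10. In the insulin and IGF group, Igf2 stood at 9.78, 9.87, 10.09, 9.76 and 9.79 in the control arrays and at 11.48, 11.88, 11.59, 10.80 and 11.21 in the knockout arrays, a rise of 1.53 ± 0.17 (adjusted p = 0.00019). Igf1 rose by 1.64 ± 0.23. It also stands in the list of periocular mesenchyme and muscle markers, where its rise was the largest. The IGF-binding protein Igfbp5 fell by 1.41, although a dimmer probe set differed by -0.31, and Igfbp2 rose by 2.25 ± 0.33. The receptor Insr and the adaptors Irs1 and Irs2 fell by 0.59, 0.44 and 0.57, while Igf1r had a difference of 0.03 ± 0.09 (adjusted p = 0.855). Over all 22 PDGF, insulin, IGF, EGF and HGF genes 6 were higher and 7 lower. The retinal fit put Insr at -0.20 (adjusted p = 0.568).

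FGF signalling, which drives fibre differentiation, gave 11 higher and 7 lower of 24. The receptors Fgfr2 and Fgfr3 fell by 0.35 and 0.37 in their chosen probe sets, and Fgfr1 had a difference of -0.24 ± 0.14 (adjusted p = 0.191). Without probe sets shared between transcripts Fgfr2 was at 0.10, and the mean over probe sets put Fgfr3 at 0.00. Of the feedback inhibitors, Spry1 fell from 9.93 ± 0.06 to 9.43 ± 0.17, by 0.50 (adjusted p = 0.000963), Spry2 fell by 0.25, and Spry4 rose by 0.30 ± 0.11. Spry4 was called in 2 of the 10 fits that left out 1 array, those without control replicate 6 or knockout replicate 21, and Spry2 was not called without control replicate 6 or 7 or knockout replicate 18, 19 or 21. The target Dusp6 had a difference of 0.54 ± 0.21 (adjusted p = 0.0622). Among heparan sulfate enzymes, which shape FGF binding, the sulfatase Sulf1 fell by 1.44 and Hs6st1 by 0.61. Its relative Sulf2 rose by 1.16 ± 0.11, and by 1.10 in a second probe set, while another differed by -0.34. Among ligands, Fgf15 went from 5.83 ± 1.0 to 8.29 ± 0.72 and Fgf9 rose by 0.89 ± 0.28, while its value with the retinal covariate was -0.34 (adjusted p = 0.506). In the same fit Fgf15 was at 0.21 (adjusted p = 0.764), Fgfr2 at -0.15 (adjusted p = 0.653) and Spry2 at -0.05 (adjusted p = 0.867). Averaged over probe sets Fgfr2 was at -0.13 and Spry2 at -0.10, neither called. Fgf9 was not called without knockout replicate 18. Fgf15 is a gene of retinal progenitors, whose markers rose in the same arrays, and is itself among the markers of the covariate. Its smaller value in that fit is thus partly by construction. In knockout replicate 21 the median deviation of the FGF list was 0.00, against 0.18 to 0.42 in the other 4. The retinal factors stood at 1.91 in replicate 21 and at 1.84 in replicate 18, where the FGF list was at 0.29. A link between the 2 lists was not tested.

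BMP and TGF-beta genes gave 13 higher and 9 lower of 36. Bmp4, needed for lens induction, rose from 7.28 ± 0.50 to 9.29 ± 0.56, by 2.01 ± 0.29 (adjusted p = 0.0006), with knockout replicate 21 the lowest of its group, and the BMP target Id2 rose by 0.54 ± 0.07. The receptors Acvr2a and Acvr2b fell by 0.37 and 0.52 and the signal carrier Smad5 by 0.45. In the Notch group (6 higher and 6 lower of 21), the receptors Notch2 and Notch3 fell, by 0.98 and 0.95, and Notch1 had a difference of -0.24 ± 0.15 (adjusted p = 0.229). The ligand Jag1, which sustains lens fibre formation, fell by 0.27, and was not called without control replicate 6, 7 or 8 or knockout replicate 18 or 21. Hes1, a Notch target, rose from 7.57 ± 0.18 to 8.36 ± 0.11 and the ligand Dll1 by 1.18 ± 0.16. In the Wnt group (6 higher and 7 lower of 33), the secreted inhibitor Sfrp1 fell from 12.76 ± 0.03 to 11.91 ± 0.25, by 0.85 (adjusted p = 0.000291), and the receptor Fzd1 by 0.91. The inhibitor Notum rose by 1.95 ± 0.28 and Axin2, a target of the pathway, had a difference of 0.03 ± 0.08 (adjusted p = 0.762). Of the retinoic acid and hedgehog genes, 8 were higher and 8 lower of 23. Crabp2, which carries retinoic acid, stood at 5.77, 5.28, 5.37, 5.20 and 5.56 in the control arrays and at 7.36, 7.97, 7.57, 7.39 and 7.39 in the knockout arrays, a rise of 2.10 ± 0.14 (adjusted p = 3.66e-05). Its groups lay over a log2 unit apart, and with the retinal covariate the change was 1.83 (adjusted p = 0.0165). Eph receptors and ephrins gave 4 higher and 2 lower of 14 and Hippo and early response genes 4 higher and 7 lower of 25, where Mxd1, a Myc antagonist, fell by 0.90 and Mycn by 0.40. The retinal fit put Acvr2a at -0.23 (adjusted p = 0.29), Notch2 at -0.52 (adjusted p = 0.399), Notch3 at -0.58 (adjusted p = 0.121), Jag1 at -0.07 (adjusted p = 0.832), Dll1 at 0.63 (adjusted p = 0.141) and Fzd1 at -0.57 (adjusted p = 0.237), none of them called. Averaged over probe sets Jag1 was at -0.07 and Smad5 at -0.15, neither called.

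**Figure D4:**
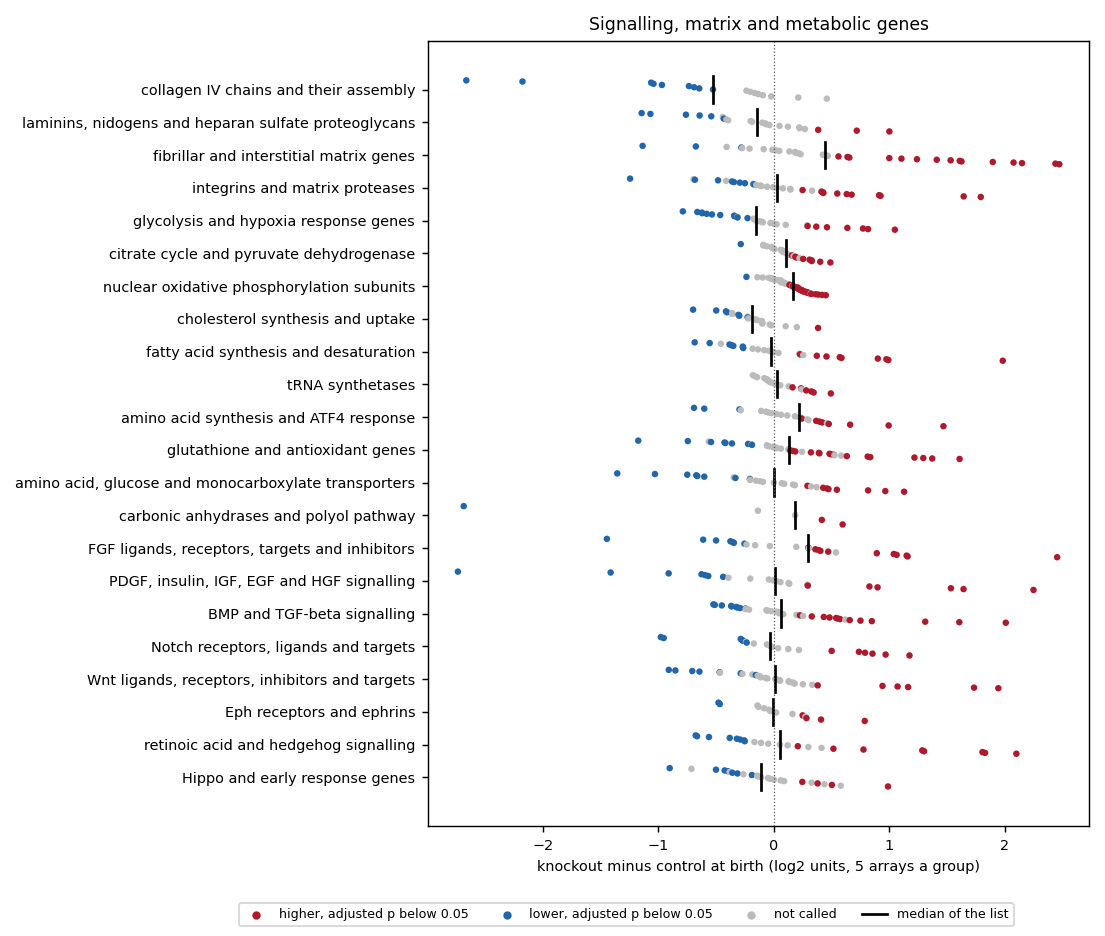
Change of each tested gene in the signalling, matrix and metabolic lists (knockout minus control, log2 units), 1 point a gene, red and blue where limma's adjusted p was below 0.05, with the list median as a bar. Of the collagen IV list 15 of 17 genes lie to the left of 0 (median -0.53), of the fibrillar matrix list 26 of 34 to the right (0.44), and the oxidative phosphorylation genes in a narrow band at 0.16.

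The collagen chains of the lens capsule were lower. Of 17 tested collagen IV chains and genes of their assembly 9 were lower and none higher, with a median change of -0.53. Without knockout replicate 21, 2 members were called higher, and without control replicate 8, 1. Col4a4 stood at 9.0, 9.52, 9.37, 9.49 and 9.73 in the control arrays and at 6.55, 5.61, 6.70, 7.37 and 7.56 in the knockout arrays. The groups did not overlap, a change of -2.66 ± 0.31 (adjusted p = 0.000238) or 6.33-fold lower, and its 2 other probe sets were lower by 1.88 and 2.49. Col4a3 stood at 7.47, 7.79, 7.77, 7.87 and 7.38 in the control arrays and at 4.99, 5.31, 5.52, 6.09 and 5.51 in the knockout arrays, a change of -2.18 ± 0.18 (adjusted p = 4.89e-05), and its other probe set was lower by 1.70. The other chains were lower too, Col4a1 by 0.64, Col4a2 by 0.97, Col4a5 by 0.53 and Col4a6 by 0.73, so that all 6 chains were called. Of the enzymes, Pxdn, which links collagen IV molecules through sulfur, fell by 1.06 and the crosslinking lysyl oxidase Loxl1 by 1.04. The collagen chaperone Serpinh1 had a difference of 0.21 ± 0.11 (adjusted p = 0.162) and the hydroxylase Plod1 one of 0.46 ± 0.19 (adjusted p = 0.0699). In knockout replicate 22 the median deviation of this list was -0.19, against -0.48 to -0.64 in the other 4. With the retinal covariate the median was -0.28 and Col4a3 alone was called, at -2.37 (adjusted p = 0.0165), while Col4a4 was at -2.24 (adjusted p = 0.0589).

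Other basement membrane genes moved less. Of 24 laminins, nidogens and heparan sulfate proteoglycans 6 were lower and 3 higher (5 without knockout replicate 21), near the background. Nidogen 1 (Nid1) fell from 11.58 ± 0.07 to 10.82 ± 0.28, by 0.76 (adjusted p = 0.000762), perlecan (Hspg2) by 0.54, and the laminin chains Lama1 and Lamb1 by 1.07 and 0.64. Laminin gamma 1 (Lamc1) had a difference of -0.43 ± 0.16 (adjusted p = 0.0535). Nephronectin (Npnt) fell by 1.14. In the fit with the retinal covariate the median of this list turned from -0.14 to 0.19, with 0 called. Genes of fibrillar and interstitial matrix went the other way, with 15 higher and 3 lower of 34 (median 0.44). Col11a1 rose from 4.84 ± 0.46, below the array median, to 7.28 ± 0.66, Col2a1 by 1.61 ± 0.16 and Col9a3 by 2.15 ± 0.28. Col11a1 and Col2a1 encode fibrillar chains and Col9a3 a chain of collagen IX, which coats such fibrils, all known from cartilage and vitreous. Opticin (Optc), a vitreous protein of the ciliary body, rose from 7.29 ± 0.82 to 9.76 ± 0.69 (adjusted p = 0.00115). These rises came in the same arrays in which ciliary body and iris markers, opticin itself among them, rose. Col1a2 and Col3a1, chains of fibroblast matrix, had differences of -0.01 ± 0.16 and 0.05 ± 0.19 and were not called, and thrombospondin 1 (Thbs1) fell by 1.14. Of 33 integrins and matrix proteases 11 were higher and 8 lower, or 5 lower without control replicate 5 or 7 or knockout replicate 18. The gelatinase Mmp2 rose by 1.79 ± 0.22, the integrin chain Itga3 fell by 0.48, and Itga6, the laminin receptor chain of the lens, had a difference of -0.01 ± 0.13 (adjusted p = 0.973). The retinal fit put Lamb1 at -0.24 (adjusted p = 0.536), Npnt at -0.74 (adjusted p = 0.318) and Itga3 at -0.27 (adjusted p = 0.372), and without probe sets shared between transcripts Lamb1 was at -0.32 and not called.

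In energy metabolism, many mitochondrial genes rose by small amounts. Of 58 nuclear subunits of oxidative phosphorylation 31 were higher and 1 lower, with a median change of 0.16. Ndufs8, of complex I, stood at 11.08, 11.13, 11.06, 11.08 and 11.11 in the control arrays and at 11.49, 11.59, 11.58, 11.38 and 11.35 in the knockout arrays, a rise of 0.39 ± 0.06 (adjusted p = 0.000941), and its groups did not overlap. Ndufs4 rose by 0.36 ± 0.06 (0.11 and not called in the mean over probe sets) and Atp5l, of the ATP synthase, by 0.31 ± 0.05, while Ndufa1 fell from 13.85 ± 0.02 to 13.61 ± 0.08 (adjusted p = 0.00563). The array medians themselves differed by 0.02, and centring each array on its median gave 28 higher. Fitted with the retinal covariate, the median was 0.20 and 0 subunits were called. Of 27 citrate cycle genes 9 were higher and 1 lower, with the succinate dehydrogenase subunits Sdhd and Sdhc up by 0.40 ± 0.06 and 0.33 ± 0.06.

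Glycolytic and hypoxia response genes leaned the other way, with 11 lower and 7 higher of 31. Hexokinase 2 (Hk2) stood at 9.82, 10.04, 9.92, 9.99 and 9.80 in the control arrays and at 9.19, 9.25, 9.25, 9.44 and 9.35 in the knockout arrays, a change of -0.62 ± 0.07 (adjusted p = 0.000196), with no overlap. The glucose transporter Slc2a1 (GLUT1) stood at 11.56, 11.80, 11.81, 11.76 and 11.74 in the control arrays and at 10.88, 11.22, 10.89, 10.95 and 11.42 in the knockout arrays, a change of -0.66 ± 0.11 (adjusted p = 0.00103), in which control replicate 1 was the lowest control and still above all knockout arrays. Its 2 other probe sets were both lower by 0.70. Pfkfb3, which speeds glycolysis, fell by 0.58, and the hypoxia factors Hif1a and Epas1 by 0.54 and 0.79. Epas1 was called in 3 of the 10 fits that left out 1 array, those without control replicate 1 or knockout replicate 18 or 22. The lactate dehydrogenases Ldha and Ldhb rose, by 0.64 ± 0.12 (adjusted p = 0.0027) and 0.77 ± 0.07 (adjusted p = 0.000114), and the lactate transporter Slc16a1 by 0.82 ± 0.22. The carbonic anhydrase-related Car8 stood at 6.46, 6.67, 6.79, 6.70 and 6.70 in the control arrays and at 4.20, 3.52, 3.20, 4.44 and 4.55 in the knockout arrays. In all 5 knockout arrays it was below the array median, so the size of its change, -2.68 ± 0.23 (adjusted p = 6.43e-05), is uncertain, and 2 other probe sets were below the median in both groups. Car2 rose by 0.60 ± 0.12. The retinal fit put Pfkfb3 at -0.33 (adjusted p = 0.336), Hif1a at -0.35 (adjusted p = 0.36), Epas1 at -0.11 (adjusted p = 0.917) and Car2 at 0.28 (adjusted p = 0.418), and the mean over probe sets put Pfkfb3 at -0.18 and Epas1 at -0.50, none of them called.

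Lipid and amino acid genes were mixed. Of 22 cholesterol genes 7 were lower (11 without knockout replicate 21) and 1, Sc5d, higher, and Sc5d was at -0.05 in the mean over its probe sets. Sc5d was not called without control replicate 1, 6, 7 or 8 or knockout replicate 21 or 22. Dhcr7, the last enzyme of cholesterol synthesis, fell from 8.25 ± 0.21 to 7.55 ± 0.21, by 0.70 (adjusted p = 0.00136), and Hmgcs1, an early one, by 0.50. Of 27 fatty acid genes 9 were higher and 8 lower. The desaturase Fads2 rose by 0.90 ± 0.08 (adjusted p = 6.04e-05) and Fabp7, a fatty acid binding protein of neural progenitors, by 1.98 ± 0.53 (-0.63 with the retinal covariate), while Acaca, which makes malonyl-CoA, fell by 0.55 and Fasn by 0.38. The ATF4 and amino acid synthesis list gave 8 higher and 3 lower of 25, with Asns up by 0.48 ± 0.10 and Cth by 0.995 ± 0.22. Transporters gave 8 higher and 8 lower of 29, or 5 higher without control replicate 7 or knockout replicate 18 or 19, and Slc7a8 fell from 7.63 ± 0.16 to 6.28 ± 0.44 (adjusted p = 0.000427). Of 40 glutathione and antioxidant genes 16 were higher and 8 lower. Glutaredoxin (Glrx) rose by 1.37 ± 0.13 (adjusted p = 0.000105), and Txnip, which binds thioredoxin and lowers glucose uptake, from 7.50 ± 0.24 to 9.11 ± 0.52. Catalase (Cat) fell by 0.54. The glutamate cysteine ligase chains Gclc and Gclm, which make glutathione, had differences of -0.19 ± 0.08 and -0.06 ± 0.09 and were not called. The retinal fit put Cth at 0.28 (adjusted p = 0.634) and Sc5d at 0.20 (adjusted p = 0.669), and in the mean over probe sets Hmgcs1 was at -0.30 and not called.

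Ribosomal protein genes had a median change close to 0, and 18 of 34 proteasome subunits rose. Cytosolic ribosomal proteins gave 7 higher and 1 lower of 37, with a median of 0.02. The count of higher ones was 1 to 6 over the fits that left out 1 array. It was 1 without control replicate 7, 2 without control replicate 5 or 6, and 3 without control replicate 1 or knockout replicate 17 or 18. Centring the arrays on their medians also gave 3. Ribosome biogenesis genes gave 5 higher (8 without knockout replicate 21) and 2 lower (1 without control replicate 7 or 8 or knockout replicate 19, 4 without knockout replicate 22) of 29 and tRNA synthetases 6 higher and 0 lower of 19. Of 34 proteasome subunits 18 were higher and none lower, with a median change of 0.18. Psma2 stood at 11.09, 11.11, 11.14, 11.09 and 11.10 in the control arrays and at 11.57, 11.79, 11.59, 11.46 and 11.50 in the knockout arrays, a rise of 0.48 ± 0.06 (adjusted p = 0.000437), and the groups did not overlap. Psmb7 rose by 0.30 ± 0.05. Genes of autophagy and the lysosome gave 10 higher and 6 lower of 29. Sqstm1, a cargo receptor of autophagy, rose by 0.85 ± 0.20, and Lamp1, a lysosomal membrane protein, fell by 0.27. In the retinal covariate fit no proteasome subunit was called and 31 of 34 kept a positive change. Averaged over its probe sets Sqstm1 was at 0.35 and not called.

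**Figure D5:**
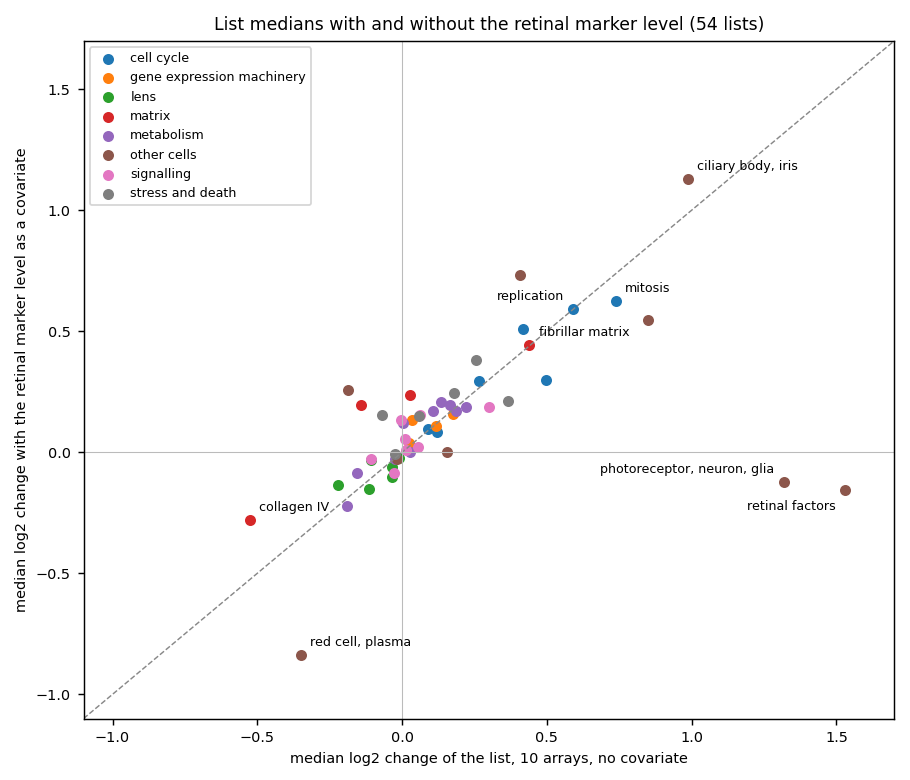
Median log2 change of the 54 gene lists in the fit of 10 arrays (horizontal axis) and in the fit with the mean of 39 retinal and neural markers as a covariate (vertical axis), with the line of equal values. Replication (0.59 in both) and mitosis (0.74 and 0.62) stay near the line, collagen IV moves from -0.53 to -0.28, and the 2 lists that supply the covariate drop to near 0 by construction.

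Levels at E17.5 place these differences beside the earlier stage, given without a test. Col4a3 stood at 5.76 ± 0.27 in control and 5.25 ± 0.52 in knockout lenses at E17.5, so the control level was higher at birth and the knockout level was close to its earlier one. Clic5 stood at 5.17 ± 0.38 in control and 4.82 ± 0.63 in knockout lenses at E17.5. At birth it stood at 7.18 ± 0.33 in control and 5.485 ± 0.26 in knockout lenses, above the earlier level in both. Both means of Clic5 at E17.5 lay below the mean array median at birth, 5.22. Knockout Col4a3 was close to that median at both stages, so low signals limit what these levels show. Prim1 stood at 7.34 ± 0.19 in control and 8.07 ± 0.40 in knockout lenses, a control level that was lower at birth beside a knockout level that was not. Gins1 stood at 6.65 ± 0.16 in control and 7.50 ± 0.43 in knockout lenses. For Pdgfra the levels were 9.29 ± 0.36 in control and 8.37 ± 0.83 in knockout lenses and for Cdh1 9.43 ± 0.50 in control and 8.88 ± 0.77 in knockout lenses, so that the knockout arrays at E17.5 lay nearer to the controls than at birth. Igf2 stood at 10.96 ± 0.36 in control and 11.68 ± 0.45 in knockout lenses, higher in controls at E17.5 than at birth. Mt1 stood at 5.74 ± 0.18 in control and 9.82 ± 1.90 in knockout lenses, and its knockout arrays at E17.5 had the largest SD among these 8 genes.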

How the data were processed

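Total RNA of lenses was hybridised to Affymetrix mouse arrays, per the labels' protocols. The authors deposited 1 log2 value per probe set and array, and no source used here says how background was corrected or the arrays normalized. The log2 scale was read from the values. Groups were taken from stage and genotype in the labels. Probe sets were named through the platform annotation, with symbols updated to RefSeq (GRCm38.p6), and each gene was read from the probe set with the highest mean over all 20 arrays. Genes above the array median in at least 5 of 20 arrays were tested (11859). limma 3.58.1 in R 4.3.3 (lmFit, eBayes) fitted the 10 arrays at birth, with two-sided p-values adjusted by the Benjamini-Hochberg method. Values are means ± SD (n = 5) and differences ± SE, and the fit was checked on simulated data. The members and gene lists were chosen with earlier results of these data known. By rule, the genes named were the 3 targeted ones, the 8 genes with the largest rise and the 8 with the largest fall without overlap, from each list up to 3 called members per direction by adjusted p (or the 2 brightest where none was called), and defining markers. Other genes named complete a pathway and were chosen after their values were seen. Alternatives were other normalizations, filters and probe set rules, all 20 arrays in 1 fit, robust and weighted fits, 2 covariates and leaving out each array. Genes on the Y chromosome and Xist were not reported.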

Additional observations from a re-analysis of the deposited data

Results flagged for a closer look

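In 35 of 466 groups of 5 arrays, 2 for each of 233 genes, 1 array lay far from the other 4 by Dixon's criterion. The log2 value of that array is given against the range of the other 4. Chance flags about 1 in 20 groups, and genes of the same array are not independent. Control replicate 1 was the lowest of its group for Cdkn1c (12.34 against 12.55 to 12.63), Col4a1 (13.08 against 13.26 to 13.32), Ctnnb1 (12.85 against 12.91 to 12.93), Foxe3 (7.84 against 8.37 to 8.56), Gclm (8.61 against 8.77 to 8.79), Lama1 (8.26 against 8.77 to 8.88), Lamc1 (7.97 against 8.37 to 8.52), Slc2a1 (11.56 against 11.74 to 11.81), Slc38a3 (8.86 against 9.13 to 9.22) and Spry4 (4.96 against 5.42 to 5.51). Knockout replicate 21 was the lowest of its group for Bmp4 (8.29 against 9.44 to 9.70), Ccnd2 (10.35 against 11.24 to 11.57), Col11a1 (6.12 against 7.35 to 7.73), Lhx2 (8.25 against 8.63 to 8.77), Lrrn1 (7.75 against 8.80 to 9.16), Mt1 (8.44 against 10.40 to 11.01), Notum (7.98 against 8.90 to 9.19), Reln (9.85 against 10.75 to 11.10) and Trp53bp1 (9.70 against 9.80 to 9.83). Knockout replicate 18 was the highest of its group for Cks2 (9.86 against 9.41 to 9.51), Mcm5 (9.10 against 8.33 to 8.52), Mdk (10.24 against 9.47 to 9.65), Rpa2 (8.59 against 8.21 to 8.28) and Sulf2 (10.06 against 9.56 to 9.67). Knockout replicate 22 was the highest of its group for Cdh1 (8.58 against 7.13 to 7.48), Lamb1 (9.68 against 8.97 to 9.14), Sdhd (10.65 against 10.45 to 10.50), Slc7a8 (7.03 against 5.88 to 6.19) and Thbs1 (6.65 against 5.88 to 6.08). Control replicate 1 was the highest of its group for Alb (9.04 against 5.81 to 6.67) and Gclc (9.30 against 8.96 to 9.02). Control replicate 6 was the highest of its group for Sqstm1 (10.23 against 9.83 to 9.89). Control replicate 7 was the highest of its group for Pttg1 (9.92 against 7.67 to 8.28). Knockout replicate 18 was the lowest of its group for Acvr2a (7.92 against 8.19 to 8.23). Knockout replicate 21 was the highest of its group for Pttg1 (10.90 against 10.16 to 10.25).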

How the results depend on the processing

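No paired analysis was possible because the 2 groups share no replicate numbers. Leaving out each array in turn gave 1915 to 2608 genes higher and 1756 to 2615 lower. Over these 10 fits, 39 to 43 replication genes, 42 to 45 mitosis genes, 15 to 18 fibrillar matrix genes, 23 to 32 oxidative phosphorylation subunits and 15 to 21 proteasome subunits were higher. In the same fits 9 to 12 membrane proteins, 12 to 14 lens transcription factors and 9 to 10 collagen IV genes were lower, with 0 to 2 collagen IV genes higher. A filter at the 75th percentile, with fewer genes tested, left 26 mitosis genes higher and 3 DNA damage genes higher. Array weights gave the most calls, 3043 higher and 3198 lower. With the retinal covariate 320 genes were higher and 117 lower, with 13 replication, 3 mitosis, 7 fibrillar matrix, 0 oxidative phosphorylation and 0 proteasome genes higher, and 2 membrane proteins, 2 lens transcription factors and 1 collagen IV gene lower. With the Gapdh covariate each of these 10 counts was 0, with 1420 genes at an unadjusted p below 0.05 in limma. Signs turned in the mean of probe sets for Fgfr3 (0.0008) and Sc5d (-0.046), and without probe sets shared between transcripts for Fgfr2 (0.10), Mdm4 (0.21) and Sulf2 (-0.34). They turned with the retinal covariate for Fabp7 (-0.63), Fgf9 (-0.34), Otx2 (-0.44) and Tfdp2 (-0.025), and with the Gapdh covariate for Asns (-0.020), Epas1 (0.061), Rbl1 (-0.0012) and Tfdp2 (-0.0081). The mean of probe sets also lowered the counts of lower FGF, Wnt and Hippo genes from 7 each to 4 each, of lower glycolysis genes from 11 to 7 and of higher citrate cycle genes from 9 to 5. In that setting 13 of 180 called genes named here lost the call, given beside them. With all 20 arrays in the fit 12 of 190 lost it (Casp6, Cdkn1c, Crybb2, Dnase2b, E2f7, Epas1, Fgfr3, Foxe3, Jag1, Mycn, Spry2 and Tfdp2). With the Gapdh covariate the mitosis median was -0.01, from 0.74. The cause was not tested. Low signals limit the size of changes in genes below the array median, such as Car8.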

Other observations

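Some of the largest changes lay in genes not discussed with the groups above. Reelin (Reln), a secreted protein of developing neurons, stood at 9.14, 7.81, 8.82, 6.96 and 8.38 in the control arrays and at 11.01, 10.91, 11.10, 9.86 and 10.75 in the knockout arrays, a rise of 2.50 ± 0.38 (adjusted p = 0.000763). The groups did not overlap, and knockout replicate 21 was the lowest of its group. The neural adhesion gene Lrrn1 rose by 2.49 ± 0.34 and Minar2 by 2.52 ± 0.35, both with wide spread among the controls (SD 0.65 and 0.80). Among the falls, the neural adhesion protein Cntn6 stood at 7.82, 7.82, 8.001, 8.03 and 8.06 in the control arrays and at 5.44, 5.61, 5.52, 6.82 and 7.02 in the knockout arrays. Its fall of 1.87 was the largest among the ciliary body and iris markers, most of which rose. Ccbe1, a secreted matrix-binding protein, fell from 8.04 ± 0.12 to 6.09 ± 0.84 (adjusted p = 0.00118). Albumin (Alb), of the red blood cell and plasma protein list, stood at 9.04, 6.21, 6.67, 6.49 and 5.81 in the control arrays and at 4.64, 4.43, 4.33, 4.48 and 4.07 in the knockout arrays. Control replicate 1 stood far above the other controls, and without it the difference was -1.90 (limma adjusted p = 0.000167).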
